A study of Rattus norvegicus with 8 samples.

Results

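Expression of 5 genes of Toll-like receptor and NF-kappaB signaling was followed in rat cardiac cells by RNA sequencing. The genes are the receptors Tlr2 (ENSRNOG00000009822) and Tlr4 (ENSRNOG00000010522), the adaptor Myd88 (ENSRNOG00000013634), the NF-kappaB subunit gene Nfkb1 (ENSRNOG00000023258) and the inhibitor gene Nfkbia (ENSRNOG00000007390). They were picked by Ensembl ID for their place in the pathway, out of 21867 genes in the table of estimated counts, and all 5 were among the 13849 genes that passed the filter on low counts. There were 8 libraries in 4 groups of 2. Cardiac fibroblasts (CFs) were primary neonatal cells of Wistar Kyoto rats and served as the healthy cells. Myofibroblasts (MFs), the contractile and matrix-producing state of these cells, were derived from CFs by repeated passaging in low-serum medium, with no growth factor added. The other groups were MFs that received direct current through platinum/iridium electrodes for 72 h at 1 µA/cm2 or 2 µA/cm2, called 1 µA and 2 µA here. CFs and MFs thus differed in passage and serum history together. The labels place the treated cells in standard medium, and the medium of the untreated MFs over the same time is not given in the sources used here, so current and medium cannot be told apart.

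Toll-like receptors sit on the cell surface or in endosomes and recognize parts of microbes as well as molecules set free from damaged tissue. TLR2 responds to lipoproteins and TLR4 to lipopolysaccharide, and both signal through the adaptor MyD88, which leads to activation of the IkappaB kinases. These kinases mark IkappaB-alpha, the product of Nfkbia, for degradation, and NF-kappaB dimers such as those holding p50, the product of Nfkb1, then enter the nucleus. NF-kappaB activates inflammatory genes and also Nfkbia itself, which closes a negative feedback loop. In the heart, fibroblasts are known to carry this pathway and to release cytokines through it after injury.

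The promoter windows of the 5 genes were searched for the kappaB consensus, the sequence bound by NF-kappaB, since several of these genes are known targets of the factor. RefSeq (build GRCr8) gave a window for all 5 genes, from 250 bases before to 50 bases after a transcript start. The consensus was found, on either strand, in the windows of Tlr2, Nfkb1 and Nfkbia and not in those of Tlr4 and Myd88. Among all 33469 RefSeq promoter windows of the same length, 7.51% held it. Tlr2 held 3 matches, of which 2 overlapped by all but 1 base. Each stretch shown runs in the direction of its gene, with the match in capitals. The first Tlr2 stretch lies at chr2:171504743-171504772 and the second at chr2:171504580-171504609, with matches that begin at positions -205 and -42 from the start. The Nfkb1 stretch, at chr2:226805440-226805469, has its match from position 4 after the start, and the Nfkbia stretch, at chr6:78597084-78597113, has a match on the opposite strand that begins at position -31. All 3 genes lie on the minus strand.
Tlr2, distal match: aggcccttggGGGAATTCCCatacggagcc
Tlr2, proximal match: ccctggcctgGGGACGTCCCcttcccgcac
Nfkb1: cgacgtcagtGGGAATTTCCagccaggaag
Nfkbia: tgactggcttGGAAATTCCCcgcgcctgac

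For Tlr2, Nfkb1 and Nfkbia the RefSeq gene reaches further upstream than the start used for the window. A match describes letters in the window and is not a measured site of binding.

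The estimated counts summed to between 26473085 and 37903701 per library. The genes were well covered, with Tlr4 the least, at 347 to 520 estimated counts per library, and Nfkb1 and Tlr2 the most, at up to 5149 and 5916. Replicates of each group differed by more than counting noise (a chi-square statistic per gene of 16.2 for MF, the lowest, and 116 for CF, the highest), and none was a copy of another. Nothing says that replicates came from separate animals, and p-values therefore measure the spread between libraries. Cell type markers were not checked because the tables pair no gene ID with a symbol. In bulk RNA, a change in the number of cells that express a gene and a change in RNA per cell cannot be told apart.

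Levels are given as CPM, the estimated count scaled to a common library total with TMM factors, which compares a gene between libraries but not with another gene. Tlr2 stood at 13.6 and 32.2 CPM in the CF libraries and at 215 and 223 CPM in the MF libraries. In the treated cells it was 121 and 99.2 CPM at 1 µA and 89.3 and 83.5 CPM at 2 µA. The 4 groups did not overlap, and the order from high to low was MF, 1 µA, 2 µA and CF. Tlr4, the other receptor, was at 10.7 and 17.0 CPM in CF, 17.5 and 15.4 CPM in MF, 15.3 and 11.5 CPM at 1 µA and 11.6 and 12.7 CPM at 2 µA. The Tlr4 range of CF covered all treated libraries and the lower MF library, and no neighbors in its order of MF, CF, 1 µA and 2 µA differed beyond their spread.

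Myd88, the adaptor that both receptors share, was at 29.3 and 41.8 CPM in CF, 56.9 and 57.3 CPM in MF, 52.4 and 44.2 CPM at 1 µA and 48.8 and 38.5 CPM at 2 µA. Both MF libraries were above all others, whereas 1 of the 4 treated libraries fell inside the range of CF. Nfkb1, which encodes the p105 precursor of p50, was at 96.4 and 107 CPM in CF, 183 and 194 CPM in MF, 127 and 125 CPM at 1 µA and 114 and 131 CPM at 2 µA. The treated libraries lay between those of CF and MF without touching either, and the current densities overlapped. Nfkbia, the feedback inhibitor, was at 19.3 and 40.2 CPM in CF, 166 and 172 CPM in MF, 109 and 68.6 CPM at 1 µA and 84.8 and 62.2 CPM at 2 µA. The means of Myd88, Nfkb1 and Nfkbia each followed the same order as Tlr2, MF, 1 µA, 2 µA and CF, but with the current densities overlapping.

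**Figure D1:**
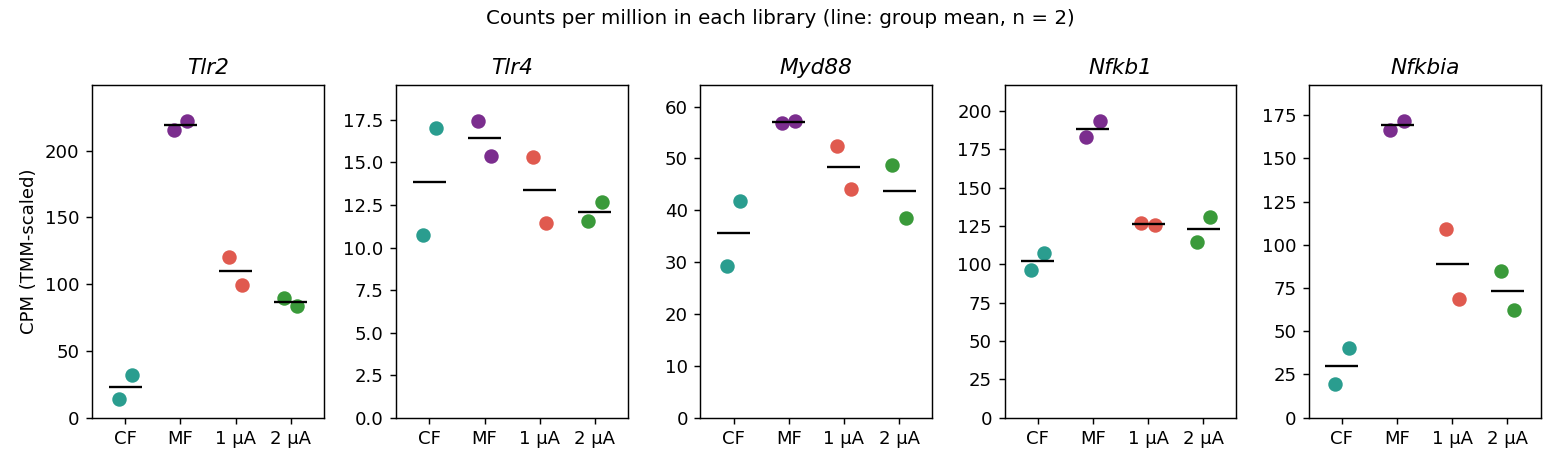
Level of each gene in CPM (y axis, starting at 0, a separate scale per gene) in the 8 libraries, with replicate 1 to the left and replicate 2 to the right in each group and the group mean as a line. In each gene other than Tlr4, both MF libraries lie above all others. Both CF libraries are the lowest for Tlr2 (13.6 and 32.2 CPM), Nfkb1 (96.4 and 107 CPM) and Nfkbia (19.3 and 40.2 CPM).

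The spread within groups was uneven. CF replicate 2 was above CF replicate 1 for 5 of the 5 genes, by 2.36-fold for Tlr2 and 2.08-fold for Nfkbia and by 1.11-fold for Nfkb1. In MF the replicates differed by at most 1.13-fold, for Tlr4. Among the treated cells Nfkbia varied most, by 1.76-fold over the 4 libraries. It was higher in replicate 1 at both current densities, as were Tlr2 and Myd88, and at 1 µA all 5 genes were.

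The comparison of MF with CF asks which of these genes accompany the differentiation of fibroblasts to myofibroblasts. Tlr2 was 9.58-fold and Nfkbia 5.70-fold higher in MF, and the means of the other 3 genes were higher by 1.19-fold (Tlr4), 1.61-fold (Myd88) and 1.85-fold (Nfkb1). A gene was called where the quasi-likelihood test of edgeR gave a p below 0.05 after Benjamini-Hochberg adjustment over all genes tested, and where the log2 fold change was 1 or more in size. By this rule 2 of the 5 genes rose, Tlr2 and Nfkbia, where 10.4% of all genes were called and 6.36% were called higher. The log2 fold change of Tlr2 was 3.26 ± 0.38 (SE, n = 2 per group, edgeR adjusted p = 0.00392), which ranked 293 of 13849 genes by size. That of Nfkbia was 2.51 ± 0.39 (SE, n = 2 per group, edgeR adjusted p = 0.00924), at rank 501.

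Nfkb1 passed the adjusted p but not the fold threshold, with a log2 fold change of 0.89 ± 0.11 (SE, n = 2 per group, edgeR adjusted p = 0.00484). At an adjusted p below 0.05 alone, 3 of the 5 genes passed, where 18.5% of all genes did. Myd88 missed narrowly, at 0.68 ± 0.20 (SE, n = 2 per group, edgeR adjusted p = 0.0537), although both of its MF libraries were above both CF libraries. It passed the adjusted p with RLE scaling (edgeR, 0.0493), no filter (edgeR, 0.0351) and DESeq2 (0.0135). The other settings, apart from fits leaving out 1 library, gave edgeR adjusted p from 0.0509 to 0.0822. Its log2 fold change was 0.46 without CF replicate 1 and 0.96 without CF replicate 2. The count of 3 of the 5 genes thus depended on the setting. For Tlr4 the log2 fold change was 0.25, with a 95% interval from -0.33 to 0.82, so a difference above 1.77-fold lies outside the interval. The median log2 fold change of the 5 genes was 0.89, beside -0.03 over all genes tested. The call of Nfkbia was lost without MF replicate 1 (log2 fold change 2.53, edgeR adjusted p = 0.0602) or MF replicate 2 (2.49, edgeR adjusted p = 0.0585), where adjusted p over all 17 alternatives ran from 2.99e-11 to 0.0602. Without CF replicate 2, the log2 fold changes of Tlr2 and Nfkbia came to 4.00 and 3.13, and without CF replicate 1 to 2.78 and 2.09.

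The comparison of treated cells with MF asks whether microcurrent shifts these genes. All 5 genes had lower means in the treated cells, and in each of them 4 of the 4 treated libraries were below both MF libraries. For Tlr4 the highest treated library (15.3 CPM) all but met the lower MF library (15.4 CPM). The share of all genes separated in this way was not computed, so the separation is given as a description. In the mean of both current densities, Tlr2 fell by 1.17 on the log2 scale (SE 0.29, n = 4 against 2, edgeR adjusted p = 0.0409), a level 0.445 times that of MF. It was the only gene of the 5 called, where 6.76% of all genes were called and 3.88% were called lower. Nfkb1 passed the adjusted p with a smaller difference, -0.60 ± 0.09 (SE, n = 4 against 2, edgeR adjusted p = 0.0122), and the share of all genes with such a p was 15%. It did not pass without MF replicate 1, MF replicate 2 or 1 µA replicate 2 (edgeR adjusted p = 0.111, 0.113 and 0.0572, and from 1.17e-05 to 0.113 over all alternatives). Nfkbia had a difference about as large as Tlr2 but more spread, with a log2 fold change of -1.06 ± 0.31 (SE, n = 4 against 2, edgeR adjusted p = 0.0613). For Myd88 the log2 fold change was -0.31 (95% interval from -0.71 to 0.08) and for Tlr4 -0.37 (95% interval from -0.86 to 0.13).

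The call of Tlr2 rested on all libraries of the comparison. Leaving out any 1 of the 6 MF and treated libraries ended it, with log2 fold changes from -1.24 to -1.10 and edgeR adjusted p from 0.0836 to 0.22, while over all 17 alternatives the adjusted p ran from 0.000628 to 0.22. Nfkbia was called by DESeq2 (adjusted p = 0.00372), which called 7.65% of all genes it tested. It was also called with no filter (edgeR adjusted p = 0.0427) and with only the groups compared (edgeR adjusted p = 0.0182). Without CF replicate 1 or CF replicate 2 its log2 fold change was -1.06 in both fits. Over all alternatives its edgeR and DESeq2 adjusted p ran from 0.00372 to 0.267.

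Taken by current density, edgeR called 0 of the 5 genes for 1 µA and 0 for 2 µA relative to MF, where 3.92% and 4.62% of all genes were called. In both comparisons 3 of the 5 genes, Tlr2, Nfkb1 and Nfkbia, had an unadjusted p below 0.05 by edgeR, as did 26.3% and 27.5% of all genes. DESeq2 called 1 gene (Tlr2) at 1 µA and 2 genes (Tlr2 and Nfkbia) at 2 µA, beside 6.45% and 7.1% of the genes it tested. The log2 fold change of Tlr2 was -0.99 ± 0.35 at 1 µA (SE, n = 2 per group, edgeR adjusted p = 0.13) and -1.34 ± 0.35 at 2 µA (SE, n = 2 per group, edgeR adjusted p = 0.0632). That of Nfkbia was -0.93 ± 0.37 at 1 µA (SE, n = 2 per group, edgeR adjusted p = 0.169) and -1.20 ± 0.37 at 2 µA (SE, n = 2 per group, edgeR adjusted p = 0.0915). A fit to only the groups compared gave, at 1 µA, edgeR adjusted p = 0.00272 for Tlr2 (log2 fold change -0.99) and 0.0352 for Nfkbia (-0.92). Both stayed short of the fold threshold. At 2 µA it gave 0.00796 for Tlr2 (-1.335) and 0.0208 for Nfkbia (-1.20). Without CF replicate 1 or CF replicate 2, the values at 1 µA were -0.99 for Tlr2 and -0.93 for Nfkbia, also short of the threshold. In the fit to all groups, Nfkb1 passed the adjusted p at both densities, with -0.58 (edgeR adjusted p = 0.0333) and -0.62 (edgeR adjusted p = 0.0261). It did not pass the fold threshold. In that fit it was the only 1 of the 5 to pass the adjusted p, beside 6.99% and 7.92% of all genes. It no longer passed at 1 µA without either MF or either 1 µA library (edgeR adjusted p from 0.143 to 0.221, and from 0.000564 to 0.221 over all alternatives), nor at 2 µA without either MF library, either 1 µA library or 2 µA replicate 1 (from 0.0622 to 0.17, and from 0.00018 to 0.17 over all alternatives). Without CF replicate 1 or CF replicate 2, the log2 fold changes at 2 µA against MF were -1.34 for Tlr2 and -1.20 for Nfkbia in both fits. Over all alternatives, the edgeR and DESeq2 adjusted p at 2 µA ran from 0.000978 to 0.268 for Tlr2 and from 0.0065 to 0.316 for Nfkbia.

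**Figure D2:**
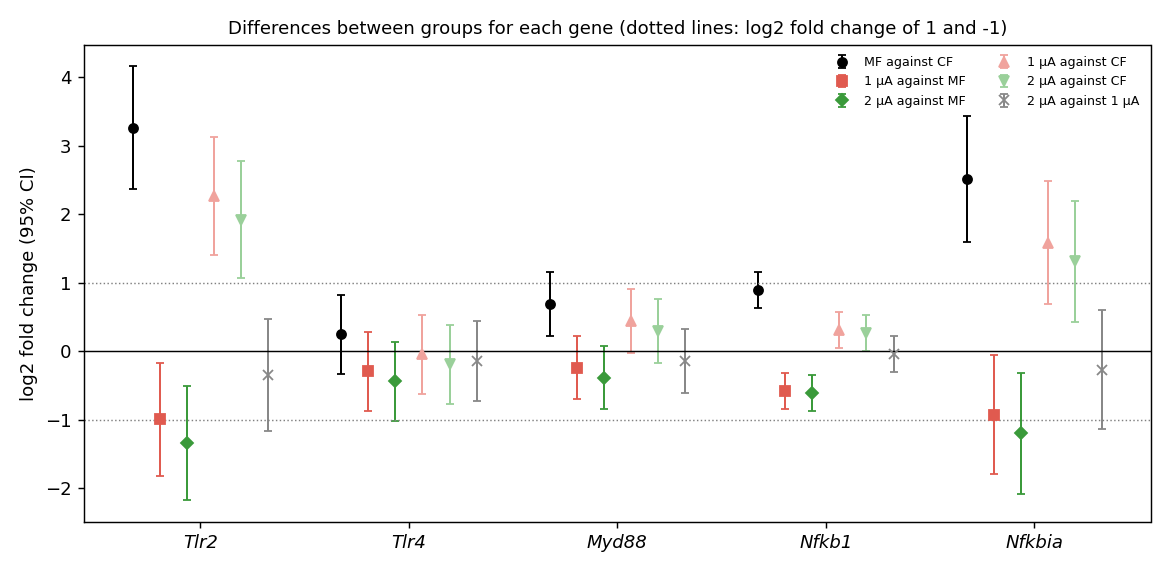
Log2 fold change (y axis) with its 95% confidence interval for each gene (x axis) in the 6 comparisons of a pair of groups, with n = 2 libraries per group. Tlr2 and Nfkbia have the largest differences between MF and CF, 3.26 and 2.51, and the intervals of 2 µA against 1 µA include 0 for all 5 genes.

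A direct comparison of the current densities gave no call among the 5 genes (0 by edgeR and 0 by DESeq2, where 0.00722% and 0.0407% of all genes were called), and 0 of the 5 had an unadjusted p below 0.05 by edgeR, beside 0.52% of all genes. All 5 means were lower at 2 µA than at 1 µA. The log2 difference was -0.35 for Tlr2 (95% interval from -1.17 to 0.47), -0.28 for Nfkbia (from -1.14 to 0.59), -0.15 for Tlr4 (from -0.72 to 0.43), -0.14 for Myd88 (from -0.61 to 0.32) and -0.04 for Nfkb1 (from -0.30 to 0.22). These intervals reach down to 0.445 times the 1 µA level for Tlr2 and 0.453 times for Nfkbia, and for Nfkb1 only to 0.812 times. Leaving out a single treated library turned the sign for every gene but Tlr2.

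The comparison of treated cells with CF asks how far the genes were from the healthy state after treatment. Tlr2 remained above CF, by 4.81-fold at 1 µA (log2 fold change 2.27 ± 0.36, SE, n = 2 per group, edgeR adjusted p = 0.0151) and by 3.78-fold at 2 µA (1.92 ± 0.36, SE, n = 2 per group, edgeR adjusted p = 0.0286). Nfkbia was 3.00-fold above CF at 1 µA (1.58 ± 0.38, SE, n = 2 per group, edgeR adjusted p = 0.0459) and 2.48-fold at 2 µA, where it was not called by edgeR (1.31 ± 0.37, SE, n = 2 per group, edgeR adjusted p = 0.0887). DESeq2 called both genes at 2 µA, beside 7.56% of all genes it tested. Thus 2 of the 5 passed as higher for 1 µA and 1 of the 5 for 2 µA, where 6.51% and 5.02% of all genes were called and 3.82% and 2.89% were called higher. In the mean of both densities, Tlr2 and Nfkbia were called above CF (2 of the 5 genes, beside 7.65% of all genes called and 4.22% called higher), by 4.26-fold (edgeR adjusted p = 0.0109) and 2.72-fold (edgeR adjusted p = 0.0367).

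Nfkb1 and Myd88 were closer to CF, with log2 fold changes of 0.29 (95% interval from 0.06 to 0.52, edgeR adjusted p = 0.0962) and 0.37 (from -0.04 to 0.78, edgeR adjusted p = 0.2) for the mean of both densities. Tlr4 was at -0.12 (from -0.62 to 0.38, edgeR adjusted p = 0.743). Set beside the difference of MF and CF on the log2 scale, the difference of treated cells and CF came to 64.2% for Tlr2, 57.6% for Nfkbia, 54.0% for Myd88 and 32.5% for Nfkb1. Both differences use the same CF libraries, so these shares are a description and were not tested. That of Myd88 was 32.7% without CF replicate 1 and 67.5% without CF replicate 2. In the same order, the shares were 49.1% and 66.1% for Nfkbia, 58.1% and 70.9% for Tlr2 and 27.85% and 38.3% for Nfkb1. The calls against CF were sensitive to single libraries. Tlr2 at 2 µA was lost without any 1 of the 6 MF and treated libraries (edgeR adjusted p from 0.0561 to 0.1), Tlr2 at 1 µA without either 1 µA library (0.0922 and 0.0612), and Nfkbia at 1 µA without any library but CF replicate 2 (from 0.0554 to 0.235). Nfkbia at 2 µA was called without CF replicate 2 (log2 fold change 1.94, edgeR adjusted p = 0.0244). In the mean of both densities Tlr2 stayed called in each fit that left out a library, and Nfkbia was lost in 5 of the 8, without either MF library, CF replicate 1, 1 µA replicate 1 or 2 µA replicate 1 (edgeR adjusted p from 0.0791 to 0.092). A fit to only the groups compared also lost Tlr2 at 1 µA and 2 µA (edgeR adjusted p = 0.0654 and 0.149) and Nfkbia at 1 µA and in the mean (0.122 and 0.0773). Without CF replicate 2, the log2 fold changes of Tlr2 over CF were 3.01 at 1 µA, 2.67 at 2 µA and 2.84 in the mean. Those of Nfkbia were 2.20 at 1 µA and 2.07 in the mean. Without CF replicate 1 they were smaller, for Tlr2 1.79 at 1 µA, 1.445 at 2 µA and 1.615 in the mean. For Nfkbia they were 1.16 at 1 µA, 0.89 at 2 µA and 1.03 in the mean. Over all alternatives the edgeR and DESeq2 adjusted p ran from 4.48e-07 to 0.149 for Tlr2 at 2 µA, from 8.52e-10 to 0.0922 for Tlr2 at 1 µA, from 0.00012 to 0.235 for Nfkbia at 1 µA, from 0.00272 to 0.298 for Nfkbia at 2 µA and from 3.21e-05 to 0.092 for Nfkbia in the mean.

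Ratios of counts within a library do not depend on how libraries are scaled and show where a pair of genes changed unequally. The ratio of Tlr2 to Tlr4 estimated counts was 1.27 and 1.89 in CF, 12.3 and 14.5 in MF, 7.87 and 8.66 at 1 µA and 7.72 and 6.59 at 2 µA. It was thus lowest in CF and highest in MF, with the treated libraries between and no overlap of MF with either. The ratio of Nfkbia to Nfkb1 was 0.200 and 0.374 in CF, 0.910 and 0.887 in MF, 0.861 and 0.547 at 1 µA and 0.741 and 0.475 at 2 µA. All treated libraries were below both MF libraries and above both CF libraries, although 1 µA replicate 1 came close to MF. The ratio of Tlr2 to Nfkbia was 0.707 and 0.801 in CF and 1.293 and 1.295 in MF. It was 1.05 to 1.45 in the treated libraries, a range that included MF. Tlr2 to Myd88 was 0.465 and 0.769 in CF, 3.78 and 3.88 in MF and 1.83 to 2.30 in the treated libraries. These ratios were chosen after the values were seen and were not tested. As counts hold gene length, their size does not compare the levels of the genes.

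**Figure D3:**
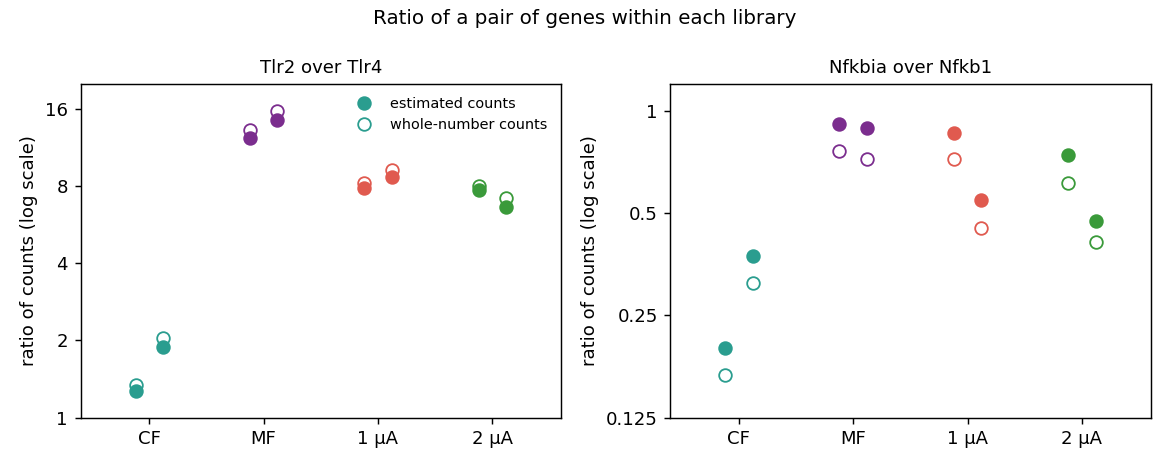
Ratio of the counts of a pair of genes in each library (y axis, log scale), for Tlr2 over Tlr4 and Nfkbia over Nfkb1, from the estimated counts (filled) and the whole-number counts (open), with replicate 1 to the left in each group. Tlr2 over Tlr4 is 1.27 and 1.89 in CF and 12.3 and 14.5 in MF by the estimated counts, with the treated libraries between.

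The authors deposited a further matrix of whole-number counts, which holds all 5 genes. Its counts were a steady share of the estimated counts in every library, from 93.2% to 95.8% for Tlr2, 86.6% to 90.8% for Tlr4, 77.3% to 80.9% for Myd88, 70.6% to 73.0% for Nfkb1 and 57.9% to 61.2% for Nfkbia. The share differed between genes, but no group stood apart within a gene. In that matrix Tlr2 over Tlr4 was 1.34 and 2.05 in CF, 13.2 and 15.6 in MF and 7.14 to 9.24 in the treated libraries. The factor for transcript length in the authors' normalized values stayed between 0.991 and 1.01 times the library median for each of the 5 genes.

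The likeness of other genes to these was measured by Pearson's r over the 8 libraries, in the authors' vst values. The libraries share groups, so r mostly reflects group means and is given as a description. Of the 13848 other genes tested, r reached 0.95 for 298 with Tlr2, 315 with Nfkbia, 188 with Nfkb1, 175 with Myd88 and 7 with Tlr4. Tlr2 and Nfkbia were alike at r = 0.983 and Myd88 and Nfkbia at r = 0.965, whereas Tlr2 and Tlr4 were at r = 0.485. The gene most like Tlr2 was ENSRNOG00000014956 (r = 0.998, log2 fold change 3.15 in MF against CF and -1.06 in the treated mean against MF). The gene most like Nfkbia was ENSRNOG00000008736 (r = 0.995, with 2.08 and -0.80). On log2 CPM both came in at place 3, with r of 0.997 and 0.994, so which gene was most alike depended on the scale.

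**Figure D4:**
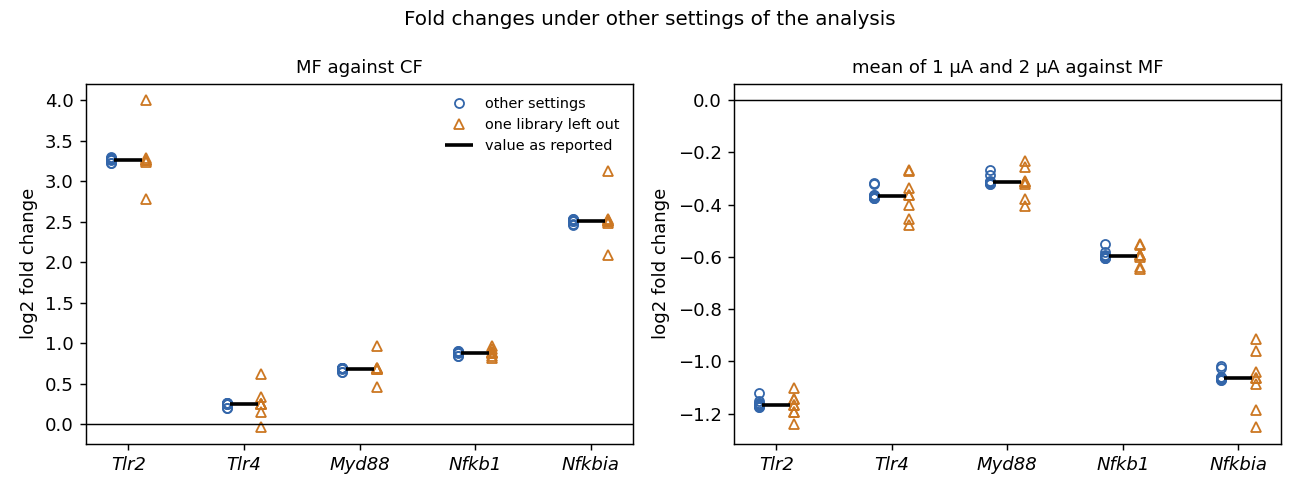
Log2 fold change (y axis) of each gene for MF against CF and for the mean of 1 µA and 2 µA against MF, as reported (bar), under other settings (circles) and with a library left out (triangles). Leaving out CF replicate 1 or CF replicate 2 moves Tlr2 in MF against CF to 2.78 or 4.00, and for the treated mean against MF all values are below 0.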

How the data were processed

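The authors aligned reads to the rat transcriptome (rn6) with salmon and deposited the estimated counts per gene, together with normalized values (a signal in which each count is divided by a DESeq2 factor for library size and transcript length) and log2 values from the variance-stabilizing transformation (vst). The submitters' processing notes list STAR and DESeq2 1.28.1. A deposited matrix of whole-number counts, in which each gene sums to at least 80, has no stated pipeline. Every per-sample column was mapped by name. The tables pair no ID with a symbol, and 0 IDs matched the RefSeq table, so the pathway and marker lists planned by symbol were left out and the 5 genes were named from the rule that gave their IDs. The genes, lists and tests were chosen with earlier results of these data known.

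Estimated counts were rounded and fitted with edgeR 4.0.16 (filterByExpr, TMM, robust quasi-likelihood F test, 4 residual degrees of freedom) in R 4.3.3, with 1 coefficient per group over 8 libraries. The SE was the log2 fold change over the square root of F, and 95% intervals used the t distribution. The fit was tested on simulated counts. Alternatives were DESeq2 1.42.0, RLE and upper quartile scaling, other filters (none, or a minimum of 10 in each library), the whole-number matrix, transcript length offsets, only the groups compared, a replicate block, adjusted p alone and leaving out each library. The named genes were the 5 genes and, by likeness in vst, at most 2 further IDs that rose in MF.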

Additional observations from a re-analysis of the deposited data

How the results depend on the processing

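Over 17 alternatives and 40 log2 fold changes (5 genes in 8 comparisons), 619 of 680 values kept their direction and side of the threshold, 35 lost a call, 17 gained one and 9 turned sign. The cause of these changes was not tested. A call could be lost only where the reported fit had made one, which was not so for most of the 40 fold changes. Among those called, the number of the 17 alternatives that lost the call ran from 0 for Tlr2 in MF against CF to 9 for Nfkbia at 1 µA against CF. RLE and upper quartile scaling, the filter of at least 10 counts, the whole-number matrix and transcript length offsets changed no count of called genes. The share of all genes called was taken only for the reported fit and DESeq2. Counts of the 5 genes from other fits, or with a library left out, are therefore given without such a share. The number of the 5 genes called moved with the other alternatives as follows. An adjusted p alone gave 1 for 1 µA, 1 for 2 µA and 2 for the treated mean, each against MF, in place of 0, 0 and 1, and 3 in MF against CF in place of 2. No filter gave 1 at 2 µA against MF and 2 for the treated mean. DESeq2 gave 1 at 1 µA and 2 at 2 µA against MF, 2 for the treated mean and 2 at 2 µA against CF, beside 6.45%, 7.1%, 7.65% and 7.56% of all genes it tested (edgeR, 3.92%, 4.62%, 6.76% and 5.02%). With only the groups compared, the counts were 2 at 2 µA against MF, 2 for the treated mean against MF, 0 at 1 µA and 0 at 2 µA against CF and 1 for the treated mean against CF. Replicates shared only a number (deviations of same-numbered libraries correlated from -0.172 to 0.242 across genes), and the replicate block gave 0 for the treated mean against MF, 1 at 1 µA against CF and 1 for the treated mean against CF, and changed no other count.

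Leaving out 1 library gave 1 to 2 genes in MF against CF, 0 to 2 at 2 µA and 0 to 2 for the treated mean against MF, 0 to 2 at 1 µA, 0 to 2 at 2 µA and 1 to 2 for the treated mean against CF, and 0 in each fit at 1 µA against MF and between the densities. A group left with 1 library is assumed to vary like the others. Signs turned only in these fits. Tlr4 ranged from -0.036 to 0.62 in MF against CF, -0.33 to 0.32 at 1 µA, -0.47 to 0.18 at 2 µA and -0.40 to 0.25 for the treated mean against CF. At 2 µA against 1 µA the ranges were -0.33 to 0.079 for Tlr4, -0.33 to 0.016 for Myd88, -0.14 to 0.055 for Nfkb1 and -0.56 to 0.0996 for Nfkbia.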
